A study of Mus musculus with 3 samples.

Results

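The genes described here are 10 genes of inflammasome signalling, pyroptosis and necroptosis: Nlrp3, Aim2, Pycard, Casp1, Casp4, Casp8, Gsdmd, Ripk1, Ripk3 and Mlkl. They were taken by gene symbol from the transcript names of the deposited tables and joined to the gene tables by gene identifier. All 10 were found, among 55536 genes of which 22028 are protein coding. The RNA came from the chromatin fraction of bone-marrow-derived macrophages of mouse strain C57BL/6J. All cells had received Lipid A at 100 ng/ml and were taken after 60 min. There were 3 libraries in 1 group, labelled biological replicates 1, 2 and 3, made by total RNA-seq after removal of ribosomal RNA. The labelled amounts of starting RNA were 1 µg, 250 ng and 500 ng in that order. No unstimulated group and no other cell fraction was analysed here. What follows describes levels and isoform shares after stimulation, and no response to Lipid A can be read from it. The labels give the same donor entry for every library, so spreads and p-values measure only the variation between these libraries, which may be technical.

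Inflammasomes are protein complexes that assemble in the cytosol when a sensor such as NLRP3 or AIM2 meets a danger signal. The adaptor ASC, encoded by Pycard, joins the sensor to caspase-1, which matures interleukin-1β and cuts gasdermin D into a pore-forming fragment, and the lytic death that follows is called pyroptosis. Necroptosis is a second lytic route, in which RIPK1 and RIPK3 lead to phosphorylation of the membrane-disrupting pseudokinase MLKL, and caspase-8 holds it in check. In macrophages, lipid A, the lipid anchor of lipopolysaccharide, signals through Toll-like receptor 4, and transcription of Nlrp3 is a textbook part of this priming step. Chromatin-fraction RNA holds many transcripts that are still being made or spliced, so its levels are closer to transcription than those of whole-cell RNA.

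The 10 genes differed in level over more than 2 orders of magnitude. Nlrp3, at 555 ± 72.6 TPM (transcripts per 1000000, SD, n = 3), and Casp4, at 299 ± 47.3 TPM, were the highest, at ranks 25 and 90 among the 22028 coding genes. The adaptor Pycard, at 2.86 ± 1.45 TPM, and the kinase Ripk3, at 2.03 ± 0.678 TPM, were the lowest, at ranks 6346 and 7172. All 10 genes reached 1 TPM in all 3 libraries, against 35.7% of coding genes. Their median level was 4.64 ± 0.09 on the log2(TPM + 1) scale (SD over 3 libraries), which is 23.9 TPM, whereas the median was 3.19 ± 0.20, or 8.10 TPM, over the 7870 coding genes that reached 1 TPM in every library. The 10 genes were chosen with earlier results of these data known, so both comparisons with coding genes are descriptions and not tests. Most Casp4 signal was assigned to transcripts annotated as retaining an intron, and Mlkl was the gene that varied most between libraries. In bulk RNA of this kind, fewer cells with a transcript and less transcript per cell cannot be told apart.

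Gene expected counts summed to 13318395, 15352661 and 15812581 in replicates 1, 2 and 3. Coding genes averaging 100 or more expected counts, of which there were 6140, were lower in replicate 1 by a median deviation of -0.21 on the log2(TPM + 1) scale, and higher by 0.16 in replicate 2 and 0.05 in replicate 3. The macrophage label was met by 13 of 13 macrophage markers at 1 TPM or more in all libraries, with summed levels of 2230 to 3400 TPM. Of 52 markers of other cell types, 21 had no count in any library and 3 reached 1 TPM throughout. These 3 were Csf3r, a cytokine receptor of neutrophils, at 31.1 ± 0.939 TPM, and the endothelial genes Vwf, at 45.6 ± 6.01 TPM, and Kdr, at 1.95 ± 0.234 TPM. The summed levels were 30.1 to 32.0 TPM for the 9 neutrophil markers and 41.0 to 53.3 TPM for the 6 endothelial markers. Among neutrophil markers, 5 of 9 had no count. A second quantification of the same libraries, in tables with the column names that kallisto writes (kallisto-style tables), put 13 of the 52 at 1 TPM or more throughout. They listed the T cell gene Cd3d, with no count above, at a mean of 25.0 TPM, Thy1 at 9.69 TPM and the endothelial gene Pecam1 at 7.72 TPM, so the check on other cells differs between quantifications. In the gene tables Thy1 was at 0.0733 and Pecam1 at 0.337 TPM. These 3 genes were picked after their values were seen. The other T cell markers in the kallisto-style tables were Cd3e at 0.075, Cd3g at 0.699, Lck at 0.318, Cd8a at 1.69 and Cd4 at 2.17 TPM. The other endothelial markers there were Cdh5 at 0.418, Tek at 0.0228, Cldn5 at 0.0, Kdr at 3.77 and Vwf at 76.8 TPM. The part of such cells in the levels below was not tested.

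**Figure D1:**
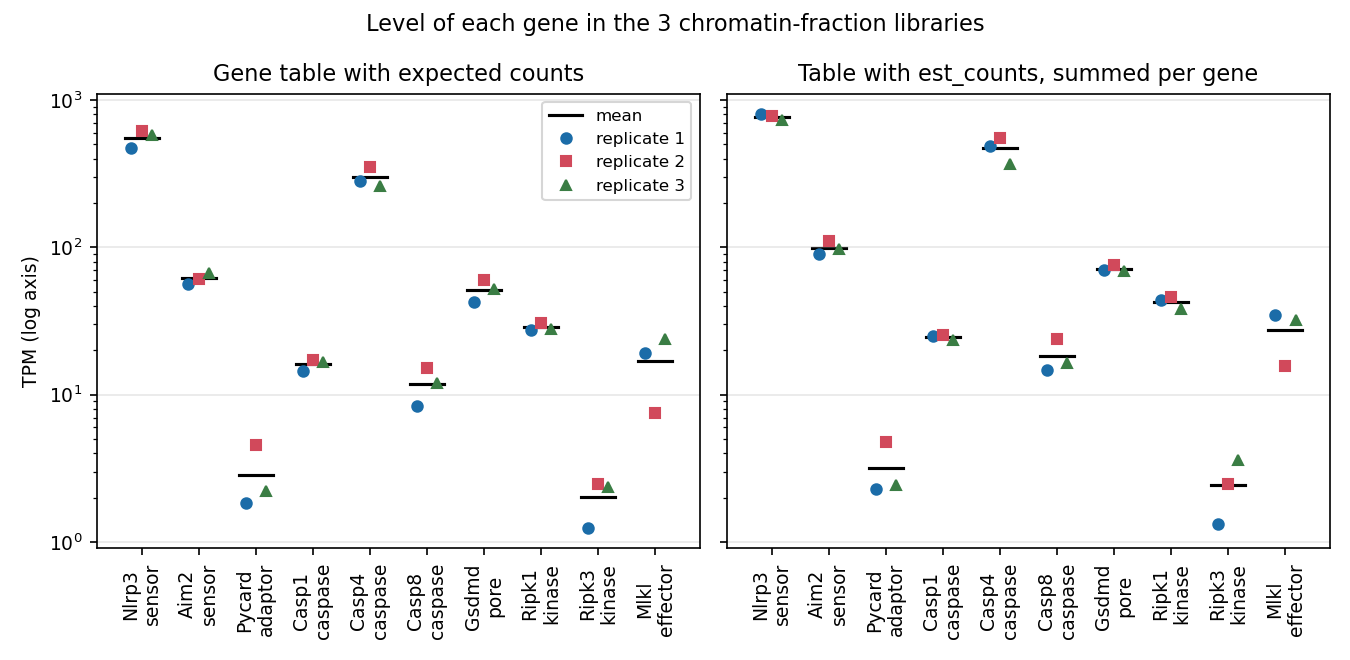
Level of each gene in TPM on a log axis, in the gene tables (left) and in the second set of transcript tables summed per gene (right), with a point for each of the 3 libraries and a bar for their mean. Nlrp3 and Casp4 sit on top and Pycard and Ripk3 at the bottom in both, and replicate 2 lies below the other libraries for Mlkl.

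Nlrp3 encodes the sensor of the most widely studied inflammasome, which responds to ion efflux and many forms of membrane damage. The gene lies on mouse chromosome 11 from 59541568 to 59566956 on the plus strand (mm10, ENSMUSG00000032691.14). Its level was 473, 612 and 579 TPM in replicates 1, 2 and 3, from 32326, 35735 and 36035 expected counts. Replicate 1 was the lowest, as it was for coding genes at large, and after the median shift of coding genes was taken off the Nlrp3 deviations were -0.01, -0.01 and 0.02. The SD of log2(TPM + 1) was 0.20, and 66.3% of the 6140 coding genes varied at least as much. The kallisto-style tables gave 772 ± 35.0 TPM. In them the median coding gene was also higher, by 0.56 on the log2 scale, and Nlrp3 by 0.48. By Euclidean distance of log2(TPM + 1) over the 3 libraries, the coding genes nearest to Nlrp3 were the tyrosine kinase gene Syk (distance 0.17, 590 ± 84.7 TPM), Gas7 (0.19, 522 ± 40.8 TPM) and Cybb (0.20, 514 ± 56.2 TPM), which encodes a subunit of the phagocyte NADPH oxidase. That distance reflects level and library together.

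The promoter stretches below are shown because, of the 9 genes with an entry in the RefSeq promoter table, Nlrp3 and Casp4 were those whose windows held a match to the NF-kB consensus. NF-kB is the transcription factor that Toll-like receptor 4 activates. A window spans 250 bases before and 50 after a start site, and the 12 windows of these 9 genes were searched on both strands. Each line gives the 250 bases before the start site, from RefSeq on GRCm38.p6, plus strand, 5′ to 3′. Capitals mark the NF-kB match in Nlrp3 and Casp4 and matches to TTCNNNGAA, the gamma-activated sequence bound by STAT factors, in Ripk1. Casp1, which lies 1562 bases before Casp4 on the same strand, is shown as a neighbour without a match.
Nlrp3, upstream start, chr11:59541319-59541568: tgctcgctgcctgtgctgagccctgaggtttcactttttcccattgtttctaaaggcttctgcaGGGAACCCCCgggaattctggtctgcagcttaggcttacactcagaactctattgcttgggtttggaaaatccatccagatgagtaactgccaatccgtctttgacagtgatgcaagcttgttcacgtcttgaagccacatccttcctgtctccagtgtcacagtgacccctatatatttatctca
Casp4, chr9:5308599-5308848: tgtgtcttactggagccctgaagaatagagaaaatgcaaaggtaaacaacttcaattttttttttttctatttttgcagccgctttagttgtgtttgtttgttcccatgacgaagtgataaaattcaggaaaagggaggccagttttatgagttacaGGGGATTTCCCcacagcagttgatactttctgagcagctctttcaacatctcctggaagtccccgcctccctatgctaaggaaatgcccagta
Casp1, chr9:5298267-5298516: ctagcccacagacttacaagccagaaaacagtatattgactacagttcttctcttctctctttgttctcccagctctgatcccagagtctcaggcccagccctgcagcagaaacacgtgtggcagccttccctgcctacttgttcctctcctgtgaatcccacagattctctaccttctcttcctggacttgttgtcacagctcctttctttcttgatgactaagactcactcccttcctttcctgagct
Ripk1, downstream start, chr13:34002624-34002873: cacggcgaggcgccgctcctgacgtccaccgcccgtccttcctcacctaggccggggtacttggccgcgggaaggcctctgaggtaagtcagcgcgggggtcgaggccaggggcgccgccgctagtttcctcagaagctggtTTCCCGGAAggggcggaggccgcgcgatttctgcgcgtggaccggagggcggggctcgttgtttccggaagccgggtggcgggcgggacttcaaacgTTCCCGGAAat

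The Nlrp3 match read GGGAACCCCC on the strand shown, took up positions -186 to -177 counted from the start site at 0, and fitted the consensus on the opposite strand. The window of the downstream Nlrp3 start, at chr11:59542436-59542735, held none. In Casp4 the capitals GGGGATTTCCC covered positions -93 to -83 and held 3 overlapping matches, 2 on the strand shown and 1 on the other. The same bases lay in the second, overlapping Casp4 window at chr9:5308610-5308909. Over all 32851 windows of the table, 4.51% held an NF-kB match. The interferon-stimulated response element, GAAANNGAAA, was found in 1 of the 12 windows, that of the downstream Ripk1 start, at positions -5 to 4 and so partly beyond the bases shown, and in 3.44% of all windows. TTCNNNGAA, whose letters read the same on both strands, was found at 2 places in that Ripk1 window, from -108 and from -11, the second sharing bases with the response element, and in 8.30% of all windows. The AP-1 motif TGANTCA was in none of the 12 and in 7.81% of all. A match describes the letters and is not evidence of binding, and a window without one says only that these letters are not in it.

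Nlrp3 has 3 annotated transcripts, all protein coding. Nlrp3-201, of 3933 bases and 11 exons, begins at the upstream start, and its level was 311, 431 and 440 TPM. Nlrp3-202, of 4021 bases, begins 1118 bases further downstream and was at 157, 130 and 126 TPM. The upstream transcript was the higher in every library and held 65.7%, 70.3% and 76.1% of the gene's TPM. Both share the body and the end of the gene, so their separation rests on the reads over the first exons. The first exon of Nlrp3-201 spans only bases 0 to 35 after the gene start. That of Nlrp3-202 spans bases 1118 to 1299, and Nlrp3-201 shares them from base 1241. The kallisto-style tables split the gene otherwise, with 34.1% ± 4.30 for Nlrp3-201, 31.7% ± 1.88 for Nlrp3-202 and 34.1% ± 4.01 for Nlrp3-203, a transcript of 676 bases and 4 exons that ends 18838 bases before the end of the gene. In the main tables Nlrp3-203 held 3.95% ± 3.85 (SD, n = 3) and 50, 369 and 97.9 expected counts. It falls outside the rule for naming transcripts and is given because the 2 quantifications part there. The upstream transcript was thus the higher in every library of one quantification, and on average level with Nlrp3-202 in the second.

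**Figure D2:**
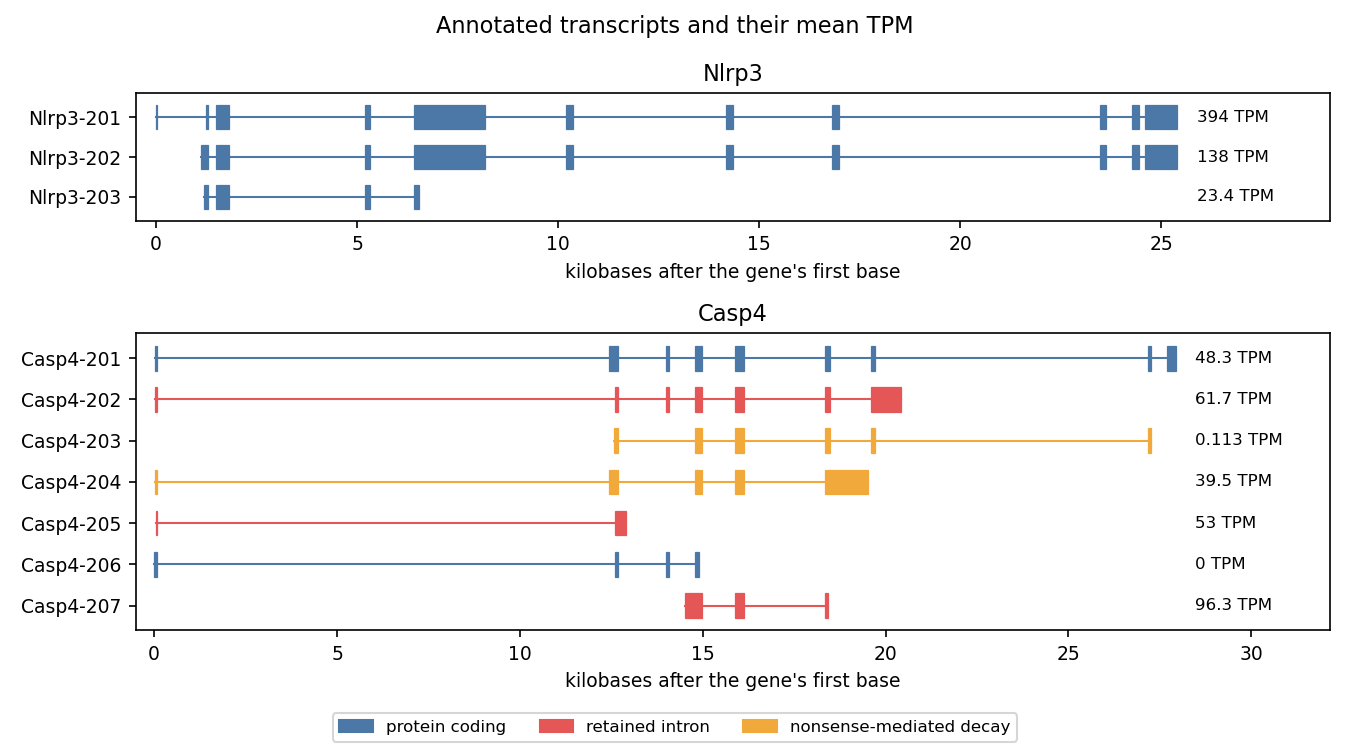
Annotated transcripts of Nlrp3 (top) and Casp4 (bottom) along each gene by distance from its first base in kilobases, with boxes for exons, lines for introns, colour for the annotated class and the mean TPM of 3 libraries at the right. The 2 long Nlrp3 transcripts hold 394 and 138 TPM, and the 3 retained-intron transcripts of Casp4 hold 61.7, 53.0 and 96.3 TPM and all end well before the gene does.

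Aim2 encodes the sensor of cytosolic double-stranded DNA. It lies on chromosome 1 from 173350879 to 173466040 on the plus strand. Its level was 56.6, 61.4 and 66.7 TPM, from 911, 807 and 928 expected counts. The libraries lay close together, and their SD of log2(TPM + 1) was 0.12, a spread that 88.3% of coding genes reached or exceeded. Nlrp3 stood 9.00 ± 0.856 times above Aim2 in TPM. That ratio depends on how length enters. Short transcripts hold a large part of Aim2: Aim2-206 and Aim2-201, noncoding processed transcripts of 383 and 372 bases, held 32.9% ± 6.21 and 16.9% ± 3.44 of its TPM, while all 3 processed transcripts together held 9.42% ± 0.201 of its expected counts. Most counts, 72.6% ± 2.03, went to Aim2-204, a coding transcript of 2079 bases with 32.2% ± 1.67 of the TPM. Aim2-205, a coding transcript of 744 bases, was at 7.36 ± 0.571 TPM. When counts were divided by the 3501 merged exon bases instead, Nlrp3 stood 34.1 ± 3.83 times above Aim2. Of the 31-base words in Aim2 transcripts, 5.26% also occur in other genes, so a small part of its reads cannot be placed with certainty.

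Of 12 other inflammasome sensor genes, 6 reached 1 TPM in every library. Nlrp1b was the highest of them at 67.8, 79.3 and 75.9 TPM. In TPM of the gene tables it stood near Aim2 and below Nlrp3 by a factor of 7.44 ± 0.405. The standing against Aim2 depended on the measure. In the kallisto-style tables Nlrp1b was at a mean of 69.2 TPM and Aim2 at 99.3 TPM. Nlrp3 there stood 11.2 ± 0.0973 times above Nlrp1b. Per merged exon base, Nlrp3 stood 10.6 ± 0.413 times above Nlrp1b but 34.1 ± 3.83 times above Aim2. The level of Nlrp1b is uncertain to the extent that reads are split with its paralogs. Nlrp12 and Nlrp9b had no count in any library, which allows up to 3 counts, or 0.190 to 0.225 CPM (counts per 1000000). They were listed above 0 in the kallisto-style tables, at 1.61 and 1.01 TPM on average, so the 2 quantifications differ there too.

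Pycard encodes ASC, the adaptor that polymerises into the speck seen in activated cells. It lies on chromosome 7 from 127989708 to 127993867 on the minus strand, and all its reads were assigned to Pycard-201, of 3800 bases. Its level was 1.85, 4.53 and 2.21 TPM, from 122, 273.5 and 134.8 expected counts. Replicate 2 was above the other libraries, and its deviation stayed at 0.42 after the shift of coding genes was taken off. Without replicate 2 the mean was 2.03 TPM. The spread, 0.51 on the log2 scale, was reached by 5.29% of coding genes. Nlrp3 stood 256, 135 and 262 times above Pycard. Pycard shares 485 exon bases with Gm45205 on the opposite strand and 12.7% of its 31-base words with other genes. Gm45205 had 2.0, 19.5 and 12.2 expected counts, fewest in replicate 1. No source used here says whether the counting used strand, so the 2 genes cannot be fully separated.

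Among 7 other inflammasome regulators, 5 reached 1 TPM throughout. P2rx7, the ATP-gated channel that triggers NLRP3 from outside the cell, led at 19.1 ± 4.55 TPM. Brcc3, a deubiquitinase of NLRP3, followed at 4.21 ± 1.11 TPM, and Nlrc3, an inhibitory relative, at 3.37 ± 1.08 TPM. Trim31, a ubiquitin ligase for NLRP3, had no count. Brcc3 and Nlrc3 thus stood in the range of Pycard, and P2rx7 in that of Casp1.

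Casp1 and Casp4 are neighbours on chromosome 9, at 5298517 to 5307265 and 5308828 to 5336783 on the plus strand. Casp1 encodes the caspase that inflammasomes activate, and Casp4 the mouse caspase-11, which binds cytosolic lipopolysaccharide directly. Casp1 was at 14.4, 17.3 and 16.7 TPM from 342, 366 and 358 expected counts. Casp4 was at 284, 352 and 261 TPM from 4778, 5136 and 4059 expected counts. The lowest Casp4 library lay far above the highest Casp1 library, and the ratio of Casp4 to Casp1 was 19.7, 20.4 and 15.7. With counts per merged exon base the ratio was 5.29 ± 0.621, so the order held and the size changed with the length used. These ratios do not compare coding transcripts alone. Transcripts annotated as retained intron and as nonsense-mediated decay held 53.5% and 24.7% of the Casp4 counts, and Casp1 has no annotated transcript of either class. The coding transcripts of Casp4 were at 48.3 ± 6.79 TPM, against 16.1 ± 1.51 TPM for Casp1. Casp1 has a single annotated transcript of 1497 bases, and its deviations stayed within 0.06 of the coding median. Casp4 was lowest in replicate 3, where its deviation was -0.24.

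Casp8 encodes the caspase that starts extrinsic apoptosis, blocks necroptosis and can cut gasdermin D. It lies on chromosome 1 from 58795374 to 58847503 on the plus strand. Its level was 8.33, 15.3 and 12 TPM from 285, 498 and 367 expected counts. Replicate 1 was the lowest and replicate 2 the highest, with deviations of -0.22 and 0.22 beyond the coding shift. Its 2 leading transcripts, Casp8-202 and Casp8-201, held 43.5% ± 5.69 and 33.6% ± 8.42 of the TPM and begin 7128 bases apart, and Casp8-203 held 16.9% ± 9.69. The lead changed with the measure: by expected counts Casp8-201 held 42.4% ± 9.12 and Casp8-202 39.5% ± 6.35. In the kallisto-style tables Casp8-204, with 6.10% here and so outside the naming rule, held 33.2% ± 7.41, beside 31.4% ± 1.66 for Casp8-202 and 22.4% ± 1.02 for Casp8-201. Gm37760, an unclassified gene on the same strand within the Casp8 span but sharing none of its exon bases, had 299, 587 and 475 expected counts, with the same order of libraries. Of the 31-base words in Casp8 transcripts, 8.64% also occur in other genes, so part of the Casp8 reads cannot be placed with certainty. Among the 7 other caspase genes, 1 reached 1 TPM in every library, and Casp14, a caspase of the skin, had no count.

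In Casp4, transcripts annotated as retaining an intron stood above the coding ones. The annotation gives 7 Casp4 transcripts: 2 coding, 3 with a retained intron and 2 marked for nonsense-mediated decay. Retained-intron transcripts summed to 200, 250 and 183 TPM in replicates 1, 2 and 3, and coding transcripts to 47.8, 55.3 and 41.7 TPM. The lowest retained-intron value exceeded the highest coding value several times over. The log2 ratio, with 0.5 TPM added to each sum, was 2.11 with a standard error of 0.13, and was above 0 in 3 of 3 libraries (limma, Benjamini-Hochberg adjusted p = 3.33e-06 over 5597 genes). Among all genes tested, 6.50% had a ratio at or above it. With expected counts in place of TPM the values were 2570.8, 2723.2 and 2182.2 against 1080.8, 1112.7 and 851.8, a log2 ratio of 1.30 with an adjusted p of 0.000133 by limma, so the direction did not depend on length scaling.

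The Casp4 transcripts cover different parts of the gene. Casp4-207, of 752 bases and 3 exons, held 32.4% ± 4.0 of the TPM. Casp4-202, of 1614 bases and 7 exons, held 20.7% ± 1.86, and Casp4-205, of 365 bases and 2 exons at the 5′ end, held 17.5% ± 3.13. All of these retained-intron transcripts end at least 7530 bases before the end of the gene. Casp4-204, marked for nonsense-mediated decay, held 13.2% ± 0.557 of the TPM and 24.7% ± 0.967 of the counts. Casp4-201, of 1435 bases and 9 exons, was the coding transcript with signal, at 48.3 ± 6.79 TPM and 16.2% ± 0.592 of the gene, and is the full-length one. At 48.3 TPM it alone stood above the 16.1 TPM of Casp1.

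Retained-intron and coding transcripts could be compared in 4 of the 10 genes, since the annotation gives no retained-intron transcript for Nlrp3, Aim2, Pycard, Casp1, Casp8 and Mlkl. Over all 5597 genes tested, 1988 had more retained-intron than coding signal, which is 35.5%, and 1784 had less, which is 31.9%. Of the 4 genes, Casp4 and Gsdmd were among the former and Ripk3 among the latter, and Ripk1 passed in neither direction. With so few genes and backgrounds of this size, the count is no result about the group. Among the other genes of the pathway lists, 36 were tested, with 13 higher in retained-intron, 12 higher in coding transcripts and 11 in neither. With expected counts in place of TPM the balance over all genes was 1288 against 3174, and the median log2 ratio moved from 0.08 to -1.10.

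**Figure D3:**
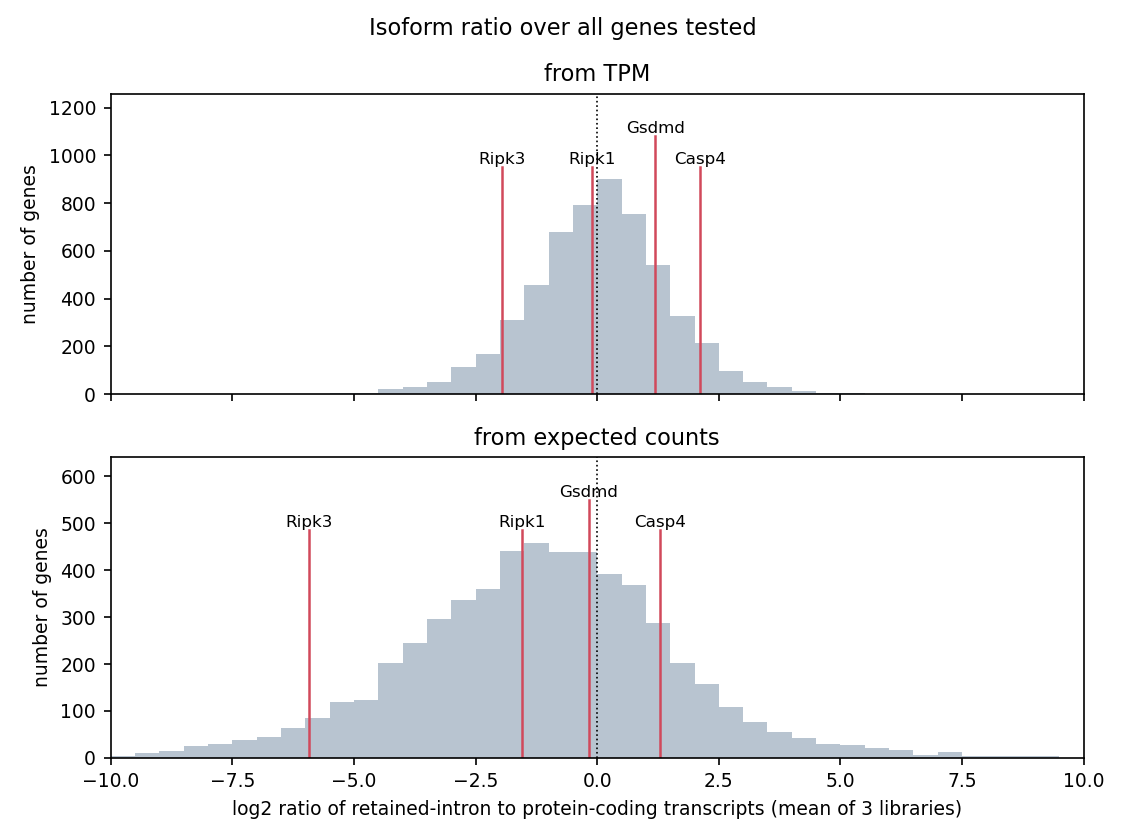
Number of genes by log2 ratio of retained-intron to coding transcripts, in bins of 0.5, over the 5597 genes tested, from TPM (top) and from expected counts (bottom), with the 4 genes that could be tested marked. Casp4 stays right of 0 on both scales, at 2.11 and 1.30, while Gsdmd moves from 1.19 to -0.17.

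Gsdmd encodes gasdermin D, whose cleaved fragment forms the pyroptotic pore. It lies on chromosome 15 from 75862327 to 75867408 on the plus strand. Its level was 42.5, 59.7 and 52.6 TPM from 698, 711 and 746 expected counts, and after the coding shift its deviations were within 0.06 of 0. Retained-intron transcripts summed to 29.1, 44.8 and 34.5 TPM and coding ones to 13.4, 14.9 and 18.1 TPM. The ranges did not overlap, and the log2 ratio was 1.19 with a standard error of 0.16 (limma, adjusted p = 0.000267, above 0 in 3 of 3 libraries). By expected counts the classes were near even, at 330.1, 357.8 and 325.0 against 367.9, 353.2 and 421.0, with a log2 ratio of -0.17 and an adjusted p of 0.330 by limma. The call for Gsdmd therefore rests on division by transcript length. Gsdmd-204, a retained-intron transcript of 915 bases in the middle of the gene, held 42.2% ± 2.87 of the TPM. The full-length coding transcript Gsdmd-201, of 1792 bases, held 26.9% ± 4.05 of the TPM and 51.9% ± 3.09 of the counts. Gsdmd-206 and Gsdmd-205, both retained-intron transcripts, held 15.7% ± 3.85 and 11.8% ± 10.2 of the TPM.

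Of 13 other gasdermin, cytokine cargo and membrane rupture genes, 6 reached 1 TPM in all libraries and 6 had no count. Il1b, the cytokine precursor that caspase-1 matures, was at 570, 747 and 667 TPM, in the range of Nlrp3. Il1a, its relative that also works as an alarmin, was at 152, 232 and 196 TPM. The genes without a count were the gasdermins Gsdma, Gsdma3, Gsdmc, Gsdmc2, Gsdmc3 and Gsdmc4, of which the naming rule takes Gsdma, and Gsdmd was the highest gasdermin. No count again allows up to 3 counts. In the kallisto-style tables Gsdma was at 1.13 TPM on average, and Gsdmc2, the next of these, at 0.104 TPM. Gsdma2, at 0.0167 TPM in the gene tables, was at 7.18 TPM there. In TPM Il1a was below Casp4 in every library, but this order depended on the measure. By expected counts Il1a was above, at 4943.4, 6814.3 and 5821.8 against 4778, 5136 and 4059 for Casp4. The coding transcripts of Casp4, at 47.8, 55.3 and 41.7 TPM, were also below Il1a. Il1b and Il1a were both above Casp1 and Pycard in every library.

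**Figure D4:**
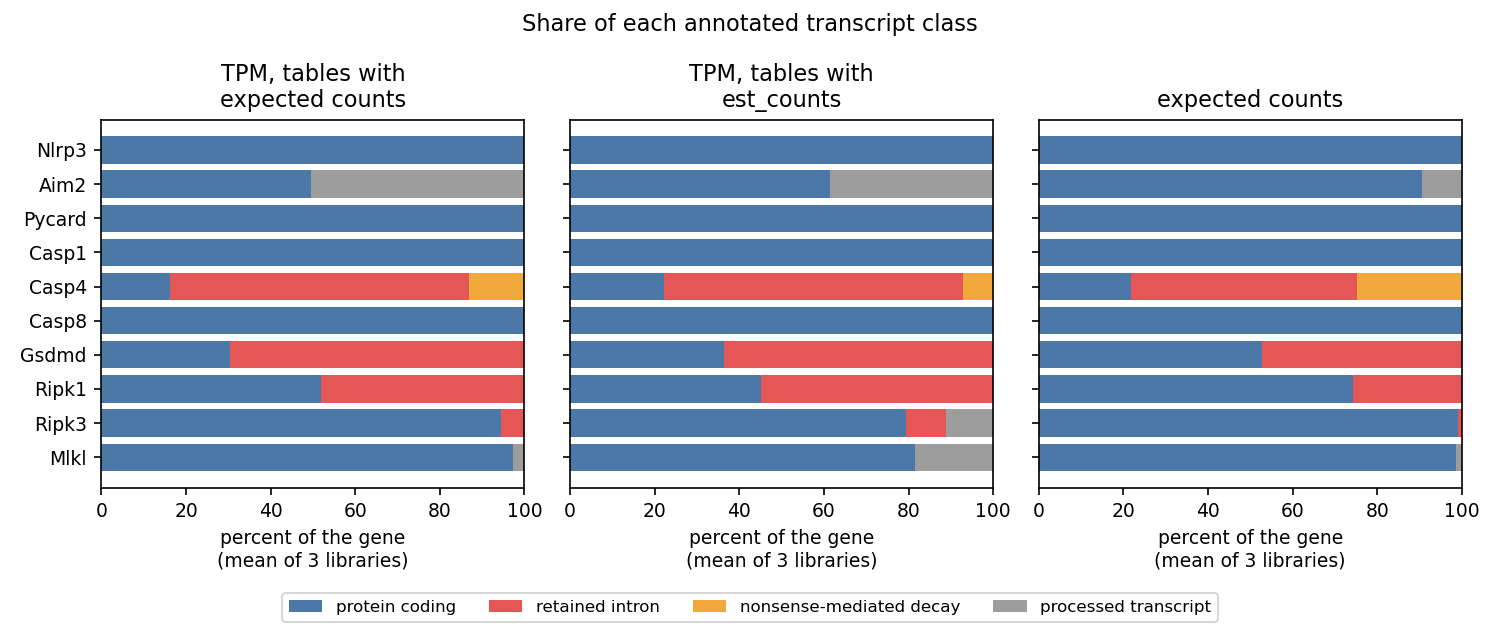
Percent of each gene assigned to each annotated transcript class, as a mean of 3 libraries, by TPM of the main tables (left), by TPM of the kallisto-style tables (middle) and by expected counts (right). Casp4 keeps more than 50% in retained-intron transcripts in all 3 panels, while the noncoding share of Aim2 shrinks from 50.5% to 9.42%.

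Ripk1 encodes the kinase and scaffold below tumour necrosis factor receptors that can lead to survival, apoptosis or necroptosis. It lies on chromosome 13 from 34002363 to 34037147 on the plus strand. Its level was 27.7, 30.5 and 28.0 TPM from 1190.8, 1216.9 and 1158.0 expected counts. In the gene tables it was the steadiest of the 10 genes, with an SD of log2(TPM + 1) of 0.07, and 95.5% of coding genes varied as much or more. Retained-intron transcripts summed to 13.1, 15.7 and 12.8 TPM and coding ones to 14.6, 14.8 and 15.2 TPM, so the ranges overlapped. The log2 ratio was -0.10 with a standard error of 0.15 (limma, adjusted p = 0.567), which does not show that the classes were equal. By expected counts it was -1.54, with 311.3, 330.1 and 272.5 against 879.5, 886.8 and 885.4 (limma, adjusted p = 0.000132). With the mean TPM per transcript it turned to 0.44 (limma, adjusted p = 0.0221), and in the kallisto-style tables to 0.28 (limma, adjusted p = 0.0639), so no direction can be given for Ripk1. The coding transcript Ripk1-201, of 3266 bases, held 42.7% ± 4.28 of the TPM, and the retained-intron transcripts Ripk1-202 and Ripk1-205 held 28.6% ± 1.73 and 19.6% ± 1.21.

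Parts of Ripk1 coincide with other genes. It shares 241 exon bases with Serpinb6a on the opposite strand, which had 404.1, 633.7 and 520.9 expected counts, and 511 with the pseudogene Gm17084 on the same strand, which had at most 10.8. A share of 8.51% of its 31-base words occurs in other genes. How far these genes enter the Ripk1 level was not tested.

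Ripk3 encodes the kinase that phosphorylates MLKL and was the lowest of the 10 genes. It lies on chromosome 14 from 55784995 to 55788865 on the minus strand. Its level was 1.25, 2.48 and 2.36 TPM, from 36, 60 and 38 expected counts. At this depth its library differences are not firm, and its range overlapped that of Pycard. Retained-intron transcripts had 1 expected count in all 3 libraries together, in replicate 3, against 36, 60 and 37 for coding ones. The log2 ratio of -1.95 (standard error 0.28, limma adjusted p = 0.000321, below 0 in 3 of 3 libraries) depends in size on the settings. It was -3.51 with 0.1 TPM added, and -0.65 when each class was averaged over its transcripts instead of summed (limma, adjusted p = 0.0160). Ripk3 was not tested with a filter at 5 TPM. The assignment among coding transcripts moved from library to library: Ripk3-201 held 72.8%, 22.2% and 36.2% of the TPM, Ripk3-202 held 0%, 59.3% and 9.36%, and Ripk3-208 held 37.9% in replicate 3 and 0% in the others. Ripk1 stood 22.2, 12.3 and 11.9 times above Ripk3.

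Mlkl encodes the executioner of necroptosis and was the member that varied most. It lies on chromosome 8 from 111311797 to 111338177 on the minus strand. Its level was 19.2 TPM in replicate 1, 7.47 in replicate 2 and 23.9 in replicate 3, from 317, 137 and 404 expected counts. Replicate 2 was the lowest although coding genes at large were highest there. After that shift was taken off the deviations were 0.53, -1.09 and 0.56. The SD of log2(TPM + 1) was 0.82, and 32 of the 6140 coding genes, or 0.521%, varied as much or more. The mean of 16.9 ± 8.45 TPM became 21.5 TPM without replicate 2. The kallisto-style tables show the same low library, at 34.7, 15.7 and 32.1 TPM. Replicate 2 was made from the smallest labelled amount of starting RNA, and the part of that amount in the difference was not tested.

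The low value of Mlkl in replicate 2 was seen in both of its leading transcripts. Mlkl-202, the coding transcript of 1976 bases over the whole gene, had 205.3, 95.5 and 291.5 expected counts. Mlkl-204, a transcript of 593 bases that ends 20020 bases before the end of the gene, had 82.2, 19.1 and 75.2. By TPM the short Mlkl-204 held 52.1% ± 7.91 and Mlkl-202 39.2% ± 5.65, while by counts Mlkl-202 held 68.9% ± 3.77. None of the 31-base words of Mlkl transcripts occurs in another gene.

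**Figure D5:**
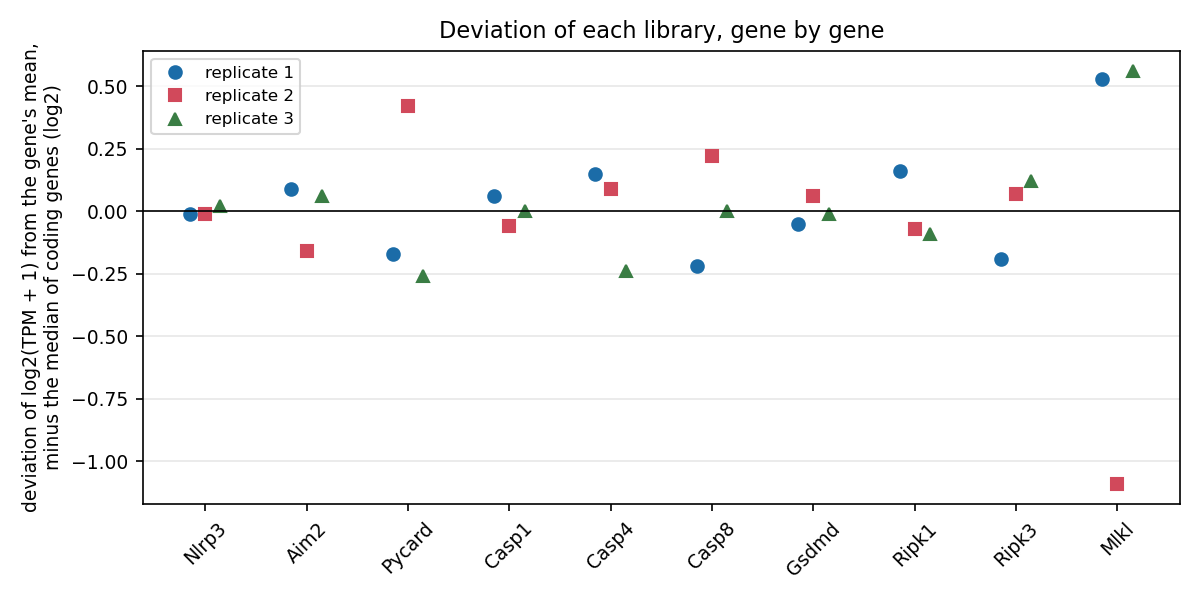
Deviation of each library from the gene's own mean on the log2(TPM + 1) scale, after the median deviation of 6140 coding genes was subtracted, with a point for each of the 3 libraries. Mlkl lies at -1.09 in replicate 2, and the other 9 genes stay between -0.26 and 0.42.

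The list of genes around the RIP kinases held 29 others, of which 27 reached 1 TPM in every library. The 3 highest were Tnfaip3, Ikbke and Cflar. Tnfaip3, the NF-kB-induced ubiquitin editor A20, was at 656, 922 and 823 TPM. Ikbke, an IKK-related kinase, was at 599, 599 and 640 TPM. Cflar, the caspase-8 inhibitor cFLIP, was at 316, 373 and 336 TPM, far above Casp8 in every library. Tlr3, a receptor of double-stranded RNA that engages RIPK3, was the lowest at 0.757 ± 0.401 TPM. Of the 54 genes detected among all lists other than the 10, 24 had their lowest deviation in replicate 2, where Mlkl was low. The same share over all coding genes was not computed, so this count is no result about the lists or Mlkl.

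All 9 genes of the ESCRT machinery that repairs gasdermin and MLKL pores reached 1 TPM throughout. The highest were Vps4b, a disassembly ATPase, at 77.1 ± 23.0 TPM, Pdcd6ip, which encodes the adaptor ALIX, at 63.8 ± 2.95 TPM, and Chmp4b, a filament subunit, at 19.9 ± 0.193 TPM. Chmp2b was the lowest at 4.01 ± 0.265 TPM. Across all lists, 54 of 77 genes other than the 10 reached the threshold, against the same 35.7% of coding genes, and 10 had no count. The lists too were chosen with earlier results of these data known, so this share is a description and not a test.

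The order of the 10 genes by TPM was Nlrp3, Casp4, Aim2, Gsdmd, Ripk1, Mlkl, Casp1, Casp8, Pycard and Ripk3. The ranges over libraries overlapped between Aim2 and Gsdmd, Mlkl and Casp1, Casp1 and Casp8, and Pycard and Ripk3, so their spread over libraries does not set them apart. Within each library, however, Aim2 stood above Gsdmd by factors of 1.33, 1.03 and 1.27, and Casp1 above Casp8 by 1.73, 1.13 and 1.39, with the same sign in 3 of 3 libraries of both quantifications. Mlkl against Casp1 and Pycard against Ripk3 changed sign between libraries. The other neighbours did not overlap. Nlrp3 and Casp4 came first and Pycard and Ripk3 last on each of 5 scales tried. Between them the order depended on length: with counts per merged exon base Gsdmd was the third, Aim2 the fourth, Casp1 the fifth and Mlkl the eighth. On the scales that take account of length, the ratio of Nlrp3 to Casp1 was 34.4 ± 1.34 in TPM, 31.2 ± 0.842 in the kallisto-style tables and 36.0 ± 1.13 per merged exon base. By CPM, which is not divided by length, it was 97.6 ± 3.07.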

How the data were processed

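Chromatin-fraction RNA of 3 libraries was measured by total RNA-seq. Per the file headers, each library has a gene and a transcript table with expected counts and TPM (columns named as by RSEM), and another transcript table with estimated counts and TPM (columns named as by kallisto). The assembly is mm10 per the labels, and the annotation GENCODE M21 per text files deposited with the libraries. Not given in the sources used here: programs, versions and strand setting. The authors scaled TPM to 1000000 over all rows of a table, and rows that name no gene were left out of gene totals. Estimates of isoform shares from short reads are model based and depend on the annotation.

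Levels are TPM of the gene table, with log2(TPM + 1) for spreads. Libraries were compared after subtraction of the median deviation of coding genes averaging 100 or more expected counts. Retained-intron and protein-coding TPM were summed per gene, 0.5 was added to each sum, and limma 3.58.1 tested the log2 ratio against 0 in R 4.3.3 (intercept only, empirical Bayes with a variance trend on the mean summed TPM, two-sided, Benjamini-Hochberg, threshold 0.05) in coding genes with both classes and a mean sum of at least 1 TPM. Tested on simulated data of 5535 genes, this recovered 88.4% of 2-fold, 100% of 4-fold and 100% of 8-fold changes, and 6.50% of 200 calls were false. Median estimated sizes were 0.85, 1.67 and 2.16 for true log2 ratios of 1, 2 and 3. The simulation held no error in assigning reads to transcripts and no difference in transcript length. Its rates therefore do not cover such errors in the calls reported here. Python 3.11.15, numpy 2.4.6 and pandas 2.3.3 were used.

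The 10 genes and the lists were chosen with earlier results of these data known. Named are the 10 genes, the 3 highest and the lowest of each list, the 3 coding genes nearest Nlrp3, transcripts with at least 10% of a gene's TPM, and detected markers of other cells. Alternatives were the second quantification, other added values, filters and thresholds, coding-only scaling, CPM, the mean TPM per transcript, other variance trends, each library left out, and, chosen after seeing the data, expected counts for isoforms and counts per merged exon base.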

Additional observations from a re-analysis of the deposited data

How the results depend on the processing

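All 10 genes stayed at or above the detection threshold under the second quantification, a threshold of 0.5 TPM, at least 10 expected counts and with each library left out, and 8 of 10 at 5 TPM. The median log2 level of 4.64 was 5.21 in the kallisto-style tables, 6.80 with TPM over coding genes only, 5.24 on the log2(CPM + 1) scale and 5.68 with counts per merged exon base, and 4.59 to 4.67 with a library left out. The median shift of coding genes averaging 100 or more counts was 0.56, 2.11, 1.35 and 0.79 on these scales, but the 10 genes departed from it: on the CPM scale Gsdmd moved by -0.07, Aim2 by -0.04 and Nlrp3 by 2.09, and per merged exon base Aim2 by 0.08 and Nlrp3 by 2.00. The count of genes with more retained-intron signal, 1988, was 3198 in the kallisto-style tables and 1288 with expected counts, and that with more coding signal, 1784, was 3174 with expected counts and 1116 with a filter at 5 TPM, where fewer genes were tested. With a library left out they were 1714 to 1839 and 1493 to 1612. Casp4 kept its call and direction throughout. The log2 ratio turned to -0.17 for Gsdmd with expected counts, and to 0.28 and 0.44 for Ripk1 in the kallisto-style tables and with the mean TPM per transcript (limma adjusted p = 0.0639 and 0.0221); the cause was not tested. Expected counts and counts per merged exon base were chosen after seeing the data. Libraries could not be paired between groups because all belong to 1 group. The isoform test used the ratio of the 2 classes within each library. Depth limits Ripk3 most, at 36 to 60 counts.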
